A study of Mus musculus with 16 samples.

Results

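The genes described are those for the pore-forming and accessory subunits of voltage-gated sodium channels, voltage-gated calcium channels and hyperpolarization-activated cyclic nucleotide-gated (HCN) channels in mouse cortex and thalamus. They were the protein-coding genes whose symbol begins with Cacna, Cacnb, Cacng or Hcn, or with Scn and a digit, and whose mean was at least 10 counts over the 16 libraries. Of 21804 genes in the table, 43 had such a symbol and 37 passed the mean. Described here are 34 of them: 6 sodium channel alpha and 3 sodium channel beta genes, 6 high-voltage-activated and 3 T-type calcium channel alpha1 genes, 4 alpha2delta, 3 beta and 6 gamma genes of calcium channels, and 3 HCN genes. The 6 below the mean were Cacng6 (5.84 counts), Cacna1f (5.57), Scn11a (5.33), Scn10a (3.01), Cacng1 (1.76) and Scn4a (0.682), the last being the skeletal muscle sodium channel. Just above the limit stood Cacna1s at a mean of 23.3 counts and Scn9a at 49.6.

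The brain samples came from C57BL/6 mice aged 4 months, 4 of them ret/wt and 4 ret/ret for the Pdgfb retention allele, and each of the 8 animals gave 1 cortex and 1 thalamus library. The retention allele encodes a PDGF-B that lacks the stretch holding it near the vessel wall, where it recruits pericytes, and all 4 groups carried at least 1 copy of it, since the controls were heterozygous. In ret/ret thalamus the pieces taken were calcified deposits, found by their autofluorescence under a stereomicroscope, and the same region was taken from ret/wt animals. Genotype and the way of dissection were therefore compared together in thalamus, and the effects of each cannot be told apart. The comparison of regions in ret/ret and the interaction use the same deposit libraries. There too the way of dissection cannot be told apart from the region or the genotype. The series title concerns microglia and TREM2 in vessel calcification, so the channel genes are not named among its aims.

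Sodium channels carry the upstroke of the action potential: an alpha subunit forms the pore, and beta subunits anchor it and tune its gating. Calcium channels are built around an alpha1 pore, of the high-voltage-activated kind that drives transmitter release and dendritic calcium entry or of the low-voltage-activated T-type, with alpha2delta and beta subunits that govern trafficking; most of the gamma genes encode transmembrane AMPA receptor regulatory proteins (TARPs) rather than channel subunits proper. HCN channels pass an inward current when the cell is hyperpolarized. In thalamic relay cells HCN2 and HCN4 together with T-type channels set burst firing and rhythm.

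Promoters are shown as single examples for a pair of genes that differed between the regions in both genotypes, Hcn2 (higher in thalamus) and Scn2a (lower). Neither window reaches into its own gene as annotated in GENCODE: the genes lie at chr10:79716634-79736108 and chr2:65620771-65767447 on GRCm38. Overlap with exons of other genes was not searched. RefSeq promoters on GRCm38.p6 were matched by symbol for 26 of the 34 genes. Each line gives the 250 bases before the transcription start, 5′ to 3′ on the gene's strand, and capitals mark a match to 1 of 4 motifs searched on both strands: CTTTGA (the TCF/LEF core), CAGATG (an E-box of the NEUROD type), GGGCGG (the GC box) and TGACG (the core of the cyclic AMP response element).
Hcn2, chr10:79716384-79716633, + strand: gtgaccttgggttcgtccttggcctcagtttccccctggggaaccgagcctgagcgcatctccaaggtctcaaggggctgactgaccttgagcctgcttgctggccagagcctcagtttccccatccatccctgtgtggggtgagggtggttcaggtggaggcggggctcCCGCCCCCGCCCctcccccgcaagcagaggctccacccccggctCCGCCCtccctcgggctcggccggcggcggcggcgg
Scn2a, chr2:65620519-65620768, + strand: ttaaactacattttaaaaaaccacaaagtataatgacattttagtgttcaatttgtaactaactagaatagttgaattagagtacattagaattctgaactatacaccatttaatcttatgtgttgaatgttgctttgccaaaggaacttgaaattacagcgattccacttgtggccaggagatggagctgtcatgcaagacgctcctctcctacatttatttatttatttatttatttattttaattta
The Hcn2 window held 3 GC box matches, none overlapping another motif, and 70.4% G and C. The Scn2a window held 29.6% G and C and none of the 4 motifs. Scn2a had 2 entries, and the bases just after the start used were not found in its annotated transcripts. The pair does not stand for other genes: Cacnb1, also lower in thalamus in both genotypes, had 73.2% G and C and a GC box. Of the genes lower in both genotypes, 1 of 5 windows held a GC box. Hcn2 was the only gene higher in both that had a window. A link between these windows and the region was not tested. For each channel gene the start nearest to the annotated gene start was taken, whereas all promoters include every entry of a gene. The median G and C was 62.2% in the channel windows and 52.4% in all. The GC box was found in 13 of 26 channel promoters and in 32.7% of all 32851 promoters in the RefSeq table. The TCF/LEF core was found in 3 of 26 and in 13.8% of all, the E-box in 1 of 26 and in 14.4%, and the cyclic AMP core in 4 of 26 and in 17.8%. These matches describe letters in the windows and not sites of binding.

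Total counts per library ran from 13415391 to 29135064, so 3 counts, the floor for a count of 0, stood for 0.103 to 0.224 CPM, the unit of all levels here (counts scaled to a common library size; counting error only). The labelled regions were met by the sums of their markers: the summed level of 8 thalamus neuron genes was 283 to 2685 CPM in thalamus and 59.8 to 129 CPM in cortex, and that of 8 cortex projection neuron genes was 818 to 2653 CPM in cortex and 79.2 to 340.2 CPM in thalamus. By edgeR 7 of 7 thalamus neuron genes tested were higher in thalamus in ret/wt (5.44% of all genes) and 4 of 8 in ret/ret (4.1%). Prkcd, a thalamic relay marker, was at 10.7 to 180.0 CPM in 6 thalamus libraries, which overlapped its 5.98 to 65.5 CPM in cortex. It reached 1155 CPM in replicate 3 of ret/wt thalamus and 1141 CPM in replicate 2 of ret/ret thalamus. The cortex libraries of these same animals stood apart as well, with 8 cerebellum genes at a sum of 1764 CPM (ret/wt replicate 3) and 3722 CPM (ret/ret replicate 2) where the other 6 cortex libraries had 17.7 to 29.0 CPM. These 2 animals were also the ones with reads of the Y-linked gene Ddx3y (55.2 to 68.6 CPM, against 0.233 CPM or less elsewhere). A further library, ret/wt cortex replicate 4, had a sum of 1126 CPM for 5 choroid plexus genes against 7.01 to 67.5 CPM in the other 15 libraries. The sum of 5 habenula genes was 22.01 to 54.5 CPM in 6 thalamus libraries. In the 2 thalamus libraries with the most Prkcd it was 9.765 CPM (ret/wt replicate 3) and 2.992 CPM (ret/ret replicate 2). In cortex it was 3.639 to 12.92 CPM. The part of these habenula genes in the channel gene differences was not tested.

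Thalamus was compared with cortex within each genotype. Of the channel genes that passed, more were lower in thalamus than higher, and Hcn2 and Cacng4 were higher in both genotypes. All genes that passed leaned the same way, with 1028 lower and 785 higher in ret/wt and 795 and 603 in ret/ret. The split also moved with the scaling. With upper-quartile factors in ret/wt it was 7 lower and 5 higher for channel genes, and 877 and 988 for all genes. In ret/wt, 12 of 34 genes passed at 0.05 by edgeR (quasi-likelihood test, p-values adjusted after Benjamini and Hochberg over all genes), where 12.6% of all 14442 genes tested did. Of these, 4 were higher in thalamus (5.44% of all genes) and 8 lower (7.12% of all genes). In ret/ret, 8 of 34 passed, where 9.5% of all 14715 genes did, with 2 higher (4.1% of all genes) and 6 lower (5.4% of all genes).

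The 8 genes that passed in ret/ret also passed in ret/wt with the same direction, which is 100% of the ret/ret calls and 66.7% of the ret/wt calls. Over all genes 983 passed in both with the same direction, 70.3% of the ret/ret calls and 54.2% of the ret/wt calls. The 2 comparisons share no library. Hcn2 and Cacng4 were higher in thalamus, and Cacna1a, Cacna1d, Cacna1e, Cacnb1, Cacng3 and Scn2a were lower. Hcn4, Scn9a, Cacna2d1 and Cacng8 passed in ret/wt alone, and 22 genes passed in neither. The values of cortex and thalamus did not overlap in 15 of 34 genes in ret/wt (19.9% of all genes) and in 8 of 34 in ret/ret (17.5% of all genes). Within animals, 11 of the 34 genes differed in the same direction in 8 of 8 animals, 3 higher and 8 lower in thalamus, where 19.8% of 14295 genes did so. The median log2 fold change, thalamus over cortex, was -0.23 for the channel genes and 0.03 for all genes in ret/wt, and -0.30 and -0.02 in ret/ret.

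**Figure D1:**
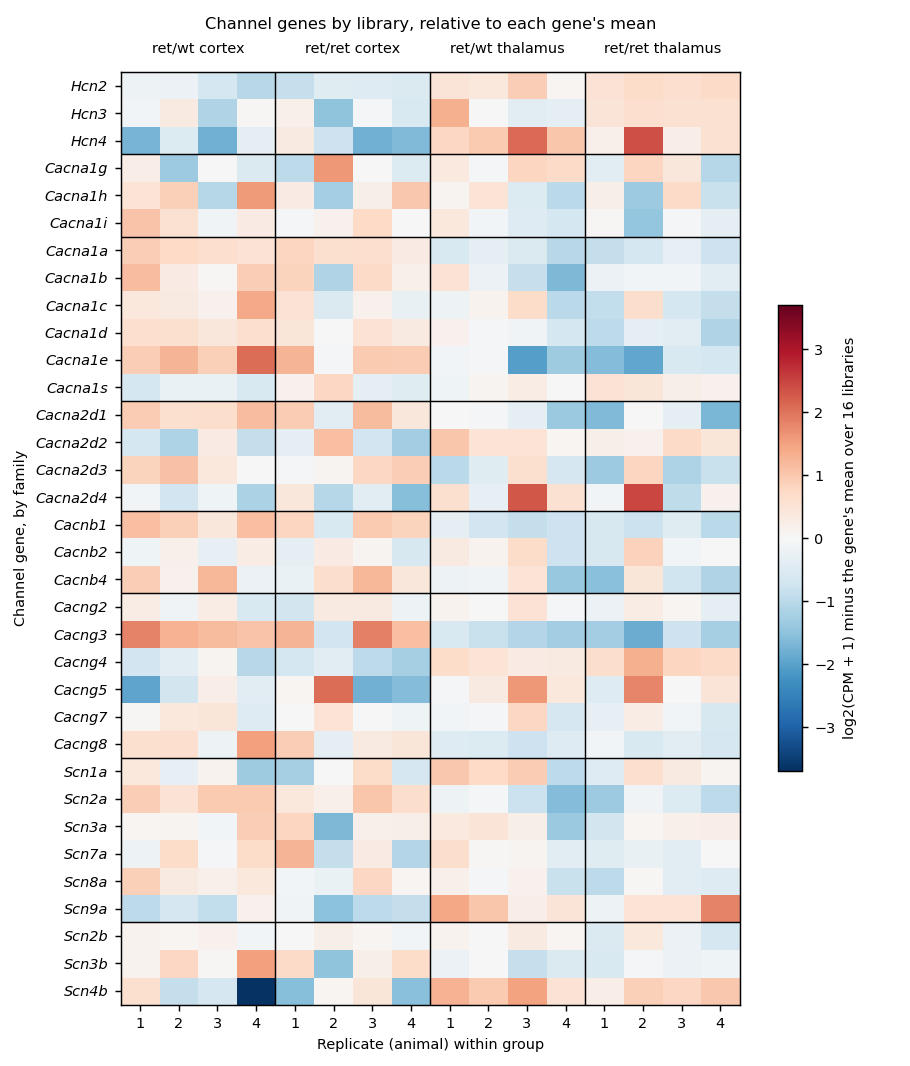
Level of each of the 34 channel genes (rows, by family) in each of the 16 libraries (columns, by group and replicate), as log2(CPM + 1) minus the gene's mean over the libraries; red is above and blue below that mean. Cacna1a changes from red in cortex to blue in thalamus and Hcn2 from blue to red, and Cacng3 is red in 7 of 8 cortex libraries, while ret/wt thalamus replicate 3 and ret/ret thalamus replicate 2 carry the darkest red of Hcn4 and Cacna2d4.

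The tissue around the neurons differed between the regions too. All 8 oligodendrocyte marker genes were higher in thalamus in both genotypes by edgeR, with summed levels of 1815 to 4534 CPM in cortex and 9694 to 16680 CPM in thalamus. The sum of 6 astrocyte genes went the other way, at 5287 to 7449 CPM in cortex and 2138 to 4347 CPM in thalamus. These 6 were not all lower: their median log2 fold change was 0.34 in ret/wt and -0.09 in ret/ret. Of them 1 was lower by edgeR in ret/wt (7.12% of all genes) and 2 in ret/ret (5.4%), and 0 were higher. The sum of 10 pan-neuronal genes was 6873 to 11080 CPM in cortex and 5408 to 9040 CPM in thalamus, and their median log2 fold change was 0.02 in ret/wt and -0.12 in ret/ret. The 10 genes did not move together. By edgeR 2 were higher and 2 lower in thalamus in ret/wt (5.44% and 7.12% of all genes). In ret/ret 1 was higher and 1 lower (4.1% and 5.4% of all genes). The sum of 6 GABAergic neuron genes was 668.9 to 938.5 CPM in ret/wt cortex and 944.9 to 1234 CPM in ret/wt thalamus. In ret/ret it overlapped, at 581.5 to 1512 CPM in cortex and 429.2 to 991.3 CPM in thalamus. Of these 6, 1 was higher and 2 lower in thalamus by edgeR in ret/wt (5.44% and 7.12% of all genes). In ret/ret 0 were higher and 2 lower (4.1% and 5.4%). The part of these oligodendrocyte, astrocyte and neuronal genes in the channel gene differences was not tested. In bulk tissue, fewer cells of a type and less RNA per cell cannot be told apart.

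**Figure D2:**
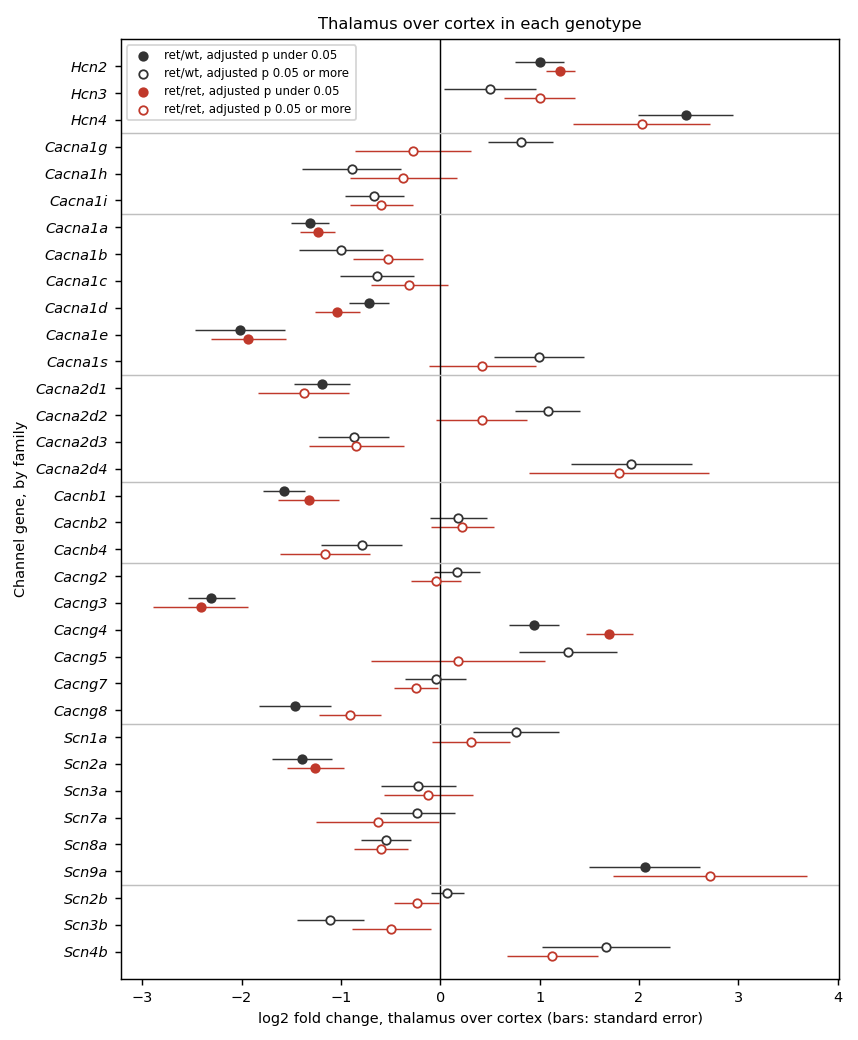
Log2 fold change of each channel gene, thalamus over cortex, in ret/wt (dark) and ret/ret (red), with its standard error as a bar; filled points have an adjusted p under 0.05. The filled points lie on the same side in both genotypes for 8 genes, among them Cacng3 at -2.30 in ret/wt and -2.41 in ret/ret and Cacng4 at 0.94 and 1.70.

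Of the HCN genes described, which encode pacemaker channels, Hcn2 was higher in thalamus in both genotypes and Hcn4 in ret/wt. Hcn2 stood at 126, 123, 92.3 and 70.2 CPM in ret/wt cortex and at 203, 188, 274 and 152 CPM in ret/wt thalamus. Hcn2 in ret/ret animals stood at 79, 105, 104 and 99.2 CPM in cortex and 210.3, 229.7, 220.4 and 235 CPM in thalamus. Every thalamus library lay above every cortex library of its genotype, and the ret/ret thalamus values were close together. For Hcn2 the log2 fold change was 1.0 ± 0.25 (SE) in ret/wt and 1.21 ± 0.14 (SE) in ret/ret, with adjusted p-values of 0.0243 and 0.00301 by edgeR. The direction held in 8 of 8 animals.

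Hcn4, the HCN gene with the slowest channel, stood at 2.76, 7.85, 2.62 and 8.67 CPM in ret/wt cortex and at 20.1, 23.4, 52.8 and 24.3 CPM in ret/wt thalamus. Hcn4 in ret/ret animals stood at 14.7, 6.28, 2.67 and 3.06 CPM in cortex and 13.3, 63.5, 13.7 and 17.4 CPM in thalamus. Cortex and thalamus were apart in ret/wt, whereas in ret/ret 1 cortex library lay among the thalamus values, and the highest library of each genotype was the one with the most Prkcd. For Hcn4 the log2 fold change was 2.47 ± 0.48 (SE) in ret/wt and 2.03 ± 0.69 (SE) in ret/ret, with adjusted p-values of 0.00762 and 0.0957 by edgeR. Hcn4 was higher in thalamus in 7 of 8 animals. With the 2 animals that stood apart left out, it was 1.82 in ret/wt (adjusted p = 0.0304, in a range of 2.47e-06 to 0.0304 over 17 alternatives) and 1.15 in ret/ret (adjusted p = 0.23, in a range of 0.0123 to 0.230).

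Hcn3, which overlaps the pyruvate kinase gene Pklr on the other strand, stood at 10.2, 14.3, 4.59 and 11.5 CPM in ret/wt cortex and at 29.1, 11.1, 8.27 and 8.44 CPM in ret/wt thalamus. Hcn3 in ret/ret animals stood at 12.9, 3.31, 10.6 and 7.15 CPM in cortex and 16, 17.6, 17 and 17 CPM in thalamus. The regions overlapped in ret/wt, where thalamus replicate 1 was far above the rest, and not in ret/ret. For Hcn3 the log2 fold change was 0.50 ± 0.46 (SE) in ret/wt and 1.0 ± 0.36 (SE) in ret/ret, with adjusted p-values of 0.531 and 0.111 by edgeR. Without ret/wt thalamus replicate 1 the ret/wt value was -0.11.

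The ret/wt Hcn2 call was lost without any 1 of cortex replicates 3 and 4 and thalamus replicates 1 and 3 (adjusted p = 0.0521 to 0.0612) and without the 2 animals that stood apart (0.117), in a range of 0.00234 to 0.117. In ret/ret the Hcn2 call held under all 17 alternatives.

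**Figure D3:**
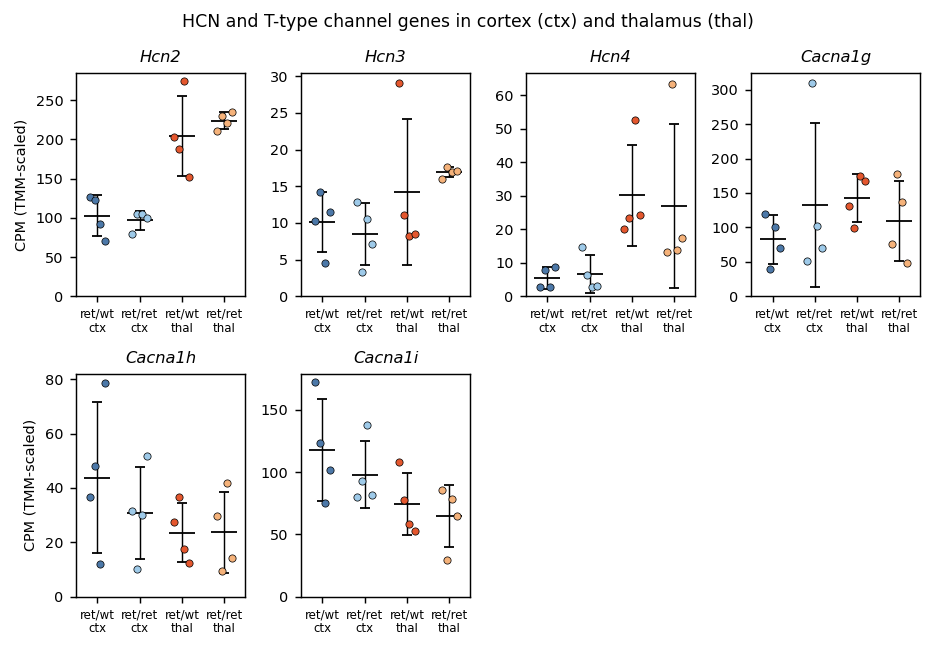
CPM of 3 HCN and 3 T-type calcium channel genes in each library (points, n = 4 per group), with the group mean and SD as bars, on linear axes from 0. Hcn2 lies higher in thalamus, the single high Hcn4 points are 52.8 and 63.5 CPM, and the single high Cacna1g point in ret/ret cortex is 309 CPM.

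None of the 3 T-type genes passed the test in either genotype. These channels open at low voltage and carry the calcium spike under thalamic bursts. Cacna1g, the isoform of thalamic relay cells, stood at 120.0, 39.8, 100.5 and 69.7 CPM in ret/wt cortex and at 130.5, 98.4, 175 and 167 CPM in ret/wt thalamus. Cacna1g in ret/ret animals stood at 51, 309, 102 and 70.7 CPM in cortex and 75.8, 177, 137 and 48.7 CPM in thalamus. The regions overlapped in both genotypes, and the highest of all 16 values was the ret/ret cortex library with cerebellum genes. For Cacna1g the log2 fold change was 0.81 ± 0.33 (SE) in ret/wt and -0.28 ± 0.58 (SE) in ret/ret, with adjusted p-values of 0.144 and 0.803 by edgeR. Without ret/ret cortex replicate 2 the ret/ret value was 0.58, of the opposite sign. Cacna1g was higher in thalamus in 6 of 8 animals.

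Cacna1h, a T-type gene that overlaps the tryptase gene Tpsg1 on the other strand, stood at 36.8, 48, 11.8 and 78.6 CPM in ret/wt cortex and at 27.4, 36.8, 17.5 and 12.4 CPM in ret/wt thalamus. Cacna1h in ret/ret animals stood at 31.6, 10.2, 29.9 and 51.6 CPM in cortex and 29.6, 9.40, 42 and 14 CPM in thalamus. The regions overlapped in both genotypes. Cacna1i, the T-type gene of the thalamic reticular nucleus among other sites, stood at 172, 123, 75.3 and 102 CPM in ret/wt cortex and at 108, 77.3, 58.4 and 52.6 CPM in ret/wt thalamus. Cacna1i in ret/ret animals stood at 79.8, 92.5, 138 and 81.7 CPM in cortex and 85.5, 29.7, 78.5 and 65.1 CPM in thalamus. Its values overlapped as well, and it was lower in thalamus in 7 of 8 animals. The log2 fold changes were -0.89 ± 0.50 (SE) and -0.37 ± 0.54 (SE) for Cacna1h in ret/wt and ret/ret, and -0.66 ± 0.29 (SE) and -0.59 ± 0.32 (SE) for Cacna1i. The smallest of the 4 adjusted p-values was 0.177 by edgeR.

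Among the 6 high-voltage-activated alpha1 genes, Cacna1a, Cacna1d and Cacna1e were lower in thalamus in both genotypes and the other 3 passed in neither. Cacna1a, the P/Q-type pore of fast transmitter release, stood at 233, 204, 189.9 and 180.4 CPM in ret/wt cortex and at 82.9, 95.7, 84.2 and 60.4 CPM in ret/wt thalamus. Cacna1a in ret/ret animals stood at 216, 187, 189 and 152 CPM in cortex and 65.9, 78.3, 99 and 72.9 CPM in thalamus. No thalamus library reached any cortex library, and the spread within each group was small beside the gap. For Cacna1a the log2 fold change was -1.31 ± 0.19 (SE) in ret/wt and -1.23 ± 0.18 (SE) in ret/ret, with adjusted p-values of 0.00168 and 0.00525 by edgeR. Both calls held under all 17 alternatives, and the gene was lower in 8 of 8 animals.

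Cacna1e, the R-type pore, stood at 236, 301, 233 and 528 CPM in ret/wt cortex and at 117, 123, 29.9 and 49.7 CPM in ret/wt thalamus. Cacna1e in ret/ret animals stood at 302, 122, 245 and 243 CPM in cortex and 40.4, 32.7, 84.7 and 80.4 CPM in thalamus. Cortex and thalamus were apart in both genotypes, and ret/wt cortex replicate 4 was the highest library and ret/wt thalamus replicate 3 the lowest. For Cacna1e the log2 fold change was -2.02 ± 0.45 (SE) in ret/wt and -1.93 ± 0.38 (SE) in ret/ret, a 4.05-fold and a 3.82-fold lower level in thalamus. The adjusted p-values were 0.0159 and 0.0147 by edgeR, and both calls held under all 17 alternatives. Cacna1e was lower in thalamus in 8 of 8 animals.

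Cacna1d, an L-type pore whose locus overlaps Dcp1a and Chdh on the other strand, stood at 53.3, 52, 46.5 and 53 CPM in ret/wt cortex and at 38.5, 32.7, 31.1 and 21.4 CPM in ret/wt thalamus. Cacna1d in ret/ret animals stood at 47.5, 34.2, 50.3 and 43.9 CPM in cortex and 17, 27, 26.2 and 15.5 CPM in thalamus. The regions did not overlap in either genotype, and the gene was lower in 8 of 8 animals. For Cacna1d the log2 fold change was -0.72 ± 0.20 (SE) in ret/wt and -1.04 ± 0.23 (SE) in ret/ret, with adjusted p-values of 0.0386 and 0.0240 by edgeR. The ret/wt call was lost without any 1 of the 4 cortex libraries or of thalamus replicates 2 and 3 (adjusted p = 0.0507 to 0.0997), with upper-quartile scaling (0.059), without a filter on low counts (0.0515), with the animal as a block (0.0669) and without the 2 animals that stood apart (0.0914), in a range of 0.00893 to 0.0997 over 17 alternatives. The ret/ret call was lost without any 1 of cortex replicates 1, 3 and 4 and thalamus replicates 1 and 4 (adjusted p = 0.0526 to 0.0757, in a range of 0.000993 to 0.0757).

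Cacna1b, the N-type pore, had a log2 fold change of -1.0 ± 0.42 (SE) in ret/wt and -0.53 ± 0.35 (SE) in ret/ret, and its groups overlapped. Cacna1c, the L-type pore whose locus overlaps Dcp1b on the other strand, was at -0.64 and -0.31 on the same scale. With the 2 animals that stood apart left out, Cacna1b was at -0.83 and Cacna1c at -0.98 in ret/ret, with adjusted p-values of 0.0283 and 0.0235 by edgeR, in ranges of 0.0272 to 0.653 and 0.0235 to 0.930 over 17 alternatives. Cacna1s, the skeletal muscle pore, was at 0.326 to 2.55 CPM in all 16 libraries, and its values in ret/wt did not overlap between the regions (log2 fold change 1.0 ± 0.45, SE; adjusted p = 0.188 by edgeR).

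The accessory alpha2delta genes, which raise the surface density of calcium channels and bind gabapentin in the case of the first and the second member, gave 1 call. Cacna2d1 stood at 297, 232, 241 and 338 CPM in ret/wt cortex and at 154, 149, 122 and 58.3 CPM in ret/wt thalamus. Cacna2d1 in ret/ret animals stood at 294, 114, 345 and 203 CPM in cortex and 48.8, 153, 119 and 47.2 CPM in thalamus. Its regions were apart in ret/wt, and in ret/ret the cortex library with cerebellum genes lay below 2 of the thalamus libraries. For Cacna2d1 the log2 fold change was -1.19 ± 0.29 (SE) in ret/wt and -1.37 ± 0.46 (SE) in ret/ret, with adjusted p-values of 0.0212 and 0.0910 by edgeR, and it was lower in thalamus in 7 of 8 animals. In ret/wt the call was lost without cortex replicate 1 or 4 (adjusted p = 0.0581 and 0.061), with all 16 libraries in the fit (0.0632), with the animal as a block (0.0553) and without the 2 animals that stood apart (0.0654), in a range of 0.00111 to 0.0654; without the animal that stood apart the ret/ret value was -1.96 (adjusted p = 0.0138, in a range of 0.0138 to 0.228).

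The other alpha2delta genes did not pass in either genotype by edgeR with all libraries. Cacna2d2, high in cerebellar Purkinje cells, had a log2 fold change of 1.08 ± 0.33 (SE) in ret/wt (adjusted p = 0.0560 by edgeR) and 0.42 ± 0.46 (SE) in ret/ret, and it was higher in thalamus in 7 of 8 animals. In ret/wt it passed with DESeq2 (adjusted p = 0.0113), limma-voom (0.0392), upper-quartile scaling (0.0325) and the animal as a block (0.048), in a range of 0.00703 to 0.145. Without the 2 animals it was 1.51 in ret/wt and 1.25 in ret/ret (adjusted p = 0.0154 and 0.0158; the ret/ret range was 0.0158 to 0.871). Cacna2d3 was at -0.87 and -0.84 with all libraries and at -1.38 and -1.69 without the 2 animals (adjusted p = 0.0304 and 0.00661, in ranges of 0.0211 to 0.304 and 0.00661 to 0.516). Cacna2d4, known from photoreceptor synapses, was at 6.77, 3.21, 24.4 and 6.57 CPM in ret/wt thalamus and 3.80, 27.6, 1.68 and 4.73 CPM in ret/ret thalamus, and 0.738 to 5.91 CPM in cortex; the high library in each genotype was the one with the most Prkcd. In ret/wt Cacna2d4 passed with DESeq2 (adjusted p = 0.00919) and not by edgeR (adjusted p = 0.0673, in a range of 0.00919 to 0.193 over the alternatives).

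Of the 3 beta genes, whose cytoplasmic subunits chaperone the alpha1 pore, Cacnb1 was lower in thalamus in both genotypes. Cacnb1 stood at 160.0, 135, 98.1 and 159 CPM in ret/wt cortex and at 57, 45, 39.2 and 43.3 CPM in ret/wt thalamus. Cacnb1 in ret/ret animals stood at 127, 49.5, 145 and 132 CPM in cortex and 48.1, 42.2, 54.1 and 36.3 CPM in thalamus. In ret/wt the regions were apart, and in ret/ret the cortex library with cerebellum genes fell among the thalamus values. For Cacnb1 the log2 fold change was -1.57 ± 0.21 (SE) in ret/wt and -1.33 ± 0.31 (SE) in ret/ret, with adjusted p-values of 0.00126 and 0.0291 by edgeR, and it was lower in 8 of 8 animals. In ret/wt the call held under all 17 alternatives. The ret/ret call was lost without any 1 of the 8 libraries other than cortex replicate 2 (adjusted p = 0.0579 to 0.0867) and with the animal as a block (0.0514), in a range of 0.00102 to 0.0867. Cacnb4 was lower in thalamus in 8 of 8 animals, at log2 fold changes of -0.79 ± 0.41 (SE) and -1.16 ± 0.45 (SE), and did not pass (adjusted p = 0.244 and 0.134 by edgeR). Without the 2 animals that stood apart Cacnb4 passed in ret/ret, at -1.70 (adjusted p = 0.0203, in a range of 0.0203 to 0.332). Cacnb2 was at 0.18 and 0.22.

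The gamma genes held both the strongest fall and a rise: Cacng3 was lower and Cacng4 higher in thalamus in both genotypes. Both encode TARPs, which carry AMPA-type glutamate receptors to the synapse and slow their closing. Cacng3 stood at 183, 126, 115 and 106 CPM in ret/wt cortex and at 34.2, 28.6, 23.6 and 20.4 CPM in ret/wt thalamus. Cacng3 in ret/ret animals stood at 123, 30.8, 187 and 112 CPM in cortex and 20.4, 13.5, 29.7 and 21.3 CPM in thalamus. Within each genotype no thalamus library reached those of cortex, although ret/ret cortex replicate 2, the library with cerebellum genes, was just above the highest ret/ret thalamus value. For Cacng3 the log2 fold change was -2.30 ± 0.24 (SE) in ret/wt and -2.41 ± 0.48 (SE) in ret/ret, a 4.93-fold and a 5.31-fold lower level, with adjusted p-values of 0.000337 and 0.0157 by edgeR. It was lower in 8 of 8 animals, and the ret/ret call was lost without thalamus replicate 1 alone (adjusted p = 0.0527, in a range of 5.51e-06 to 0.0527 over 17 alternatives).

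Cacng4 stood at 25, 30.7, 44.4 and 19.8 CPM in ret/wt cortex and at 67.3, 58.9, 51 and 51.8 CPM in ret/wt thalamus. Cacng4 in ret/ret animals stood at 26.2, 31.4, 20.6 and 17 CPM in cortex and 65.5, 104, 72 and 68.6 CPM in thalamus. Every thalamus library lay above every cortex library, and the gene was higher in 8 of 8 animals. For Cacng4 the log2 fold change was 0.94 ± 0.25 (SE) in ret/wt and 1.70 ± 0.24 (SE) in ret/ret, with adjusted p-values of 0.0344 and 0.00489 by edgeR. The ret/wt call was lost without any 1 of cortex replicates 1, 2 and 4 and thalamus replicates 1 and 2 (adjusted p = 0.0712 to 0.106) and with the animal as a block (0.0535), in a range of 0.00493 to 0.106; the ret/ret call held under all 17 alternatives.

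Cacng8, a TARP of hippocampus and cortex, stood at 12.9, 13.2, 6.97 and 25 CPM in ret/wt cortex and at 5.52, 5.41, 4.39 and 5.55 CPM in ret/wt thalamus. Cacng8 in ret/ret animals stood at 16.3, 6.16, 10.6 and 11.5 CPM in cortex and 7.57, 5.12, 5.99 and 4.94 CPM in thalamus. Its regions were apart in ret/wt and overlapped in ret/ret. For Cacng8 the log2 fold change was -1.46 ± 0.36 (SE) in ret/wt and -0.91 ± 0.31 (SE) in ret/ret, with adjusted p-values of 0.0243 and 0.100 by edgeR; it was lower in 8 of 8 animals. The ret/wt call was lost without any 1 of cortex replicates 2 and 4 and thalamus replicates 1, 2 and 3 (adjusted p = 0.0524 to 0.0627) and with limma-voom (0.0576), in a range of 0.00150 to 0.0627. Without the animal that stood apart Cacng8 passed in ret/ret as well, at -1.03 (adjusted p = 0.0407, in a range of 0.0281 to 0.217). Cacng2, Cacng5 and Cacng7 did not pass, and Cacng5 passed in ret/wt with the animal as a block, at 1.36 (adjusted p = 0.0195, in a range of 0.0195 to 0.304).

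**Figure D4:**
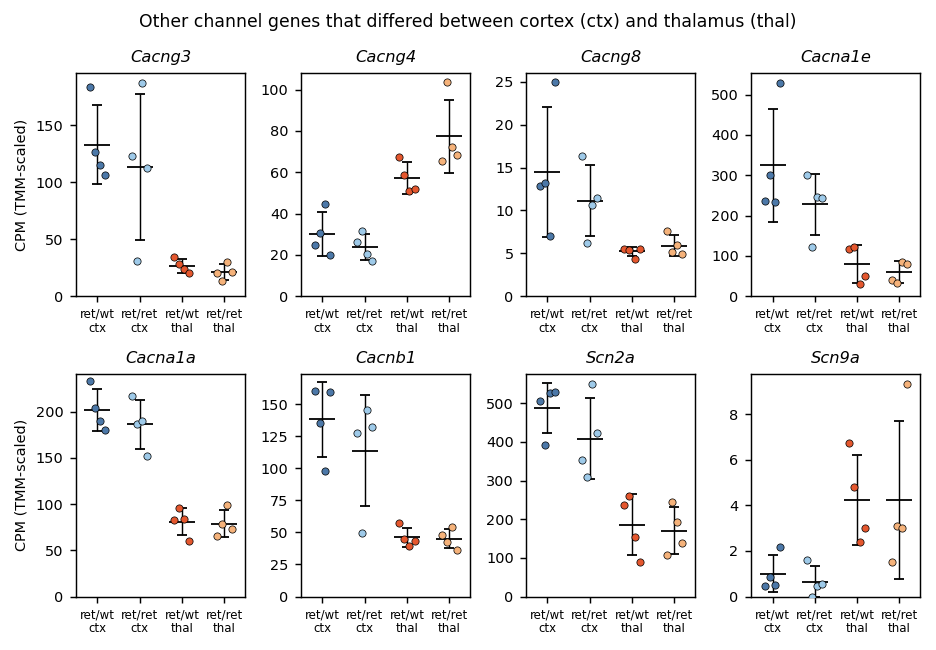
CPM of 8 other channel genes in each library (points, n = 4 per group), with the group mean and SD as bars, on linear axes from 0. Cacng4 and Scn9a lie higher in thalamus and the other 6 lower; the ret/ret cortex library with cerebellum genes gives the low cortex points of Cacng3 (30.8 CPM) and Cacnb1 (49.5 CPM), and the lower bar of Scn9a in ret/ret cortex is cut at 0.

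Of the 6 sodium channel alpha genes described, Scn2a was lower in thalamus in both genotypes and Scn9a was higher in ret/wt, while Scn1a, Scn3a, Scn7a and Scn8a passed in neither. Scn2a, a pore of unmyelinated axons and of the axon initial segment, stood at 506, 391, 527 and 528 CPM in ret/wt cortex. In ret/wt thalamus it stood at 238, 261, 155 and 89.1 CPM. Scn2a in ret/ret animals stood at 352, 308, 549 and 423 CPM in cortex and 106, 245, 192 and 138 CPM in thalamus. The regions did not overlap in either genotype, and the gene was lower in 8 of 8 animals. For Scn2a the log2 fold change was -1.39 ± 0.30 (SE) in ret/wt and -1.26 ± 0.28 (SE) in ret/ret, with adjusted p-values of 0.0137 and 0.0255 by edgeR. In ret/wt the call was lost without the animal that stood apart (adjusted p = 0.071, in a range of 0.000185 to 0.0710), and the ret/ret call without any 1 of cortex replicates 3 and 4 and thalamus replicates 1, 3 and 4 (adjusted p = 0.0589 to 0.0809, in a range of 0.000587 to 0.0809).

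Scn9a, best known from pain-sensing neurons, was scarce. It stood at 0.475, 0.862, 0.513 and 2.17 CPM in ret/wt cortex and at 6.76, 4.81, 2.40 and 2.99 CPM in ret/wt thalamus. Scn9a in ret/ret animals stood at 1.60, 0, 0.469 and 0.568 CPM in cortex and 1.52, 3.08, 3.03 and 9.32 CPM in thalamus, the 0 counts of cortex replicate 2 allowing up to 0.137 CPM. The regions did not overlap in ret/wt and overlapped in ret/ret, and Scn9a was higher in thalamus in 7 of 8 animals. For Scn9a the log2 fold change was 2.06 ± 0.56 (SE) in ret/wt and 2.71 ± 0.97 (SE) in ret/ret, with adjusted p-values of 0.0370 and 0.111 by edgeR. The ret/wt call was lost without any 1 of cortex replicates 1, 2 and 3 and thalamus replicates 1 and 2 (adjusted p = 0.083 to 0.105), with all 16 libraries in the fit (0.111), with the animal as a block (0.0609) and without the animal that stood apart (0.073), in a range of 0.00402 to 0.111.

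Scn1a, the pore that fast-spiking interneurons rely on, was at 217 ± 93.3 CPM in ret/wt cortex against 367 ± 166 CPM in ret/wt thalamus (SD, n = 4), and at 222 ± 125 and 275 ± 82.9 CPM in ret/ret (SD, n = 4). Its groups overlapped, and it was higher in thalamus in 7 of 8 animals. Scn8a, the pore of the nodes of Ranvier and the axon initial segment, was at 429.5 ± 96 and 292 ± 81.8 CPM in ret/wt and 352 ± 122 and 232 ± 66 CPM in ret/ret (SD, n = 4). Its regions did not overlap in ret/wt, and it was lower in thalamus in 7 of 8 animals without passing in either genotype (adjusted p = 0.188 and 0.200 by edgeR).

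None of the 3 sodium channel beta genes described passed in either genotype. Scn4b, the subunit linked to resurgent sodium current, stood at 181, 65.4, 77.2 and 8.52 CPM in ret/wt cortex and at 295, 236, 341 and 176 CPM in ret/wt thalamus. Scn4b in ret/ret animals stood at 39.3, 125, 166 and 40.5 CPM in cortex and 143, 222, 205 and 239 CPM in thalamus. Scn4b was higher in thalamus in 8 of 8 animals although the groups overlapped, and its cortex values varied widely. The log2 fold change of Scn4b was 1.67 ± 0.64 (SE) in ret/wt and 1.13 ± 0.46 (SE) in ret/ret, with adjusted p-values of 0.125 and 0.152 by edgeR.

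Scn2b stood at 333, 316, 340.0 and 281 CPM in ret/wt cortex and at 328, 298, 379.6 and 318 CPM in ret/wt thalamus. Scn2b in ret/ret animals stood at 303, 351, 319 and 284 CPM in cortex and 209, 394, 263 and 198 CPM in thalamus. Its cortex values varied little, and the regions overlapped. Scn3b stood at 100.1, 156, 94.6 and 266 CPM in ret/wt cortex and at 78.5, 92.7, 50.5 and 62.6 CPM in ret/wt thalamus. Scn3b in ret/ret animals stood at 149.9, 31.8, 107 and 148 CPM in cortex and 61.1, 87.7, 79.3 and 81.4 CPM in thalamus. In ret/wt its libraries stayed apart, and the log2 fold change of -1.11 ± 0.34 (SE) did not pass (adjusted p = 0.0587 by edgeR) but did with DESeq2 (adjusted p = 0.0131, in a range of 0.0130 to 0.151). In ret/ret Scn3b was at -0.49 ± 0.40 (SE), and without the animal that stood apart at -0.85 (adjusted p = 0.0229, in a range of 0.0229 to 0.740). The log2 fold change of Scn2b was 0.07 in ret/wt and -0.24 in ret/ret.

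Levels were compared between genes per kilobase only. The lowest 4 of the 34 genes in every group were Cacna1s, Cacna2d4, Scn7a and Scn9a, with the exon length and with the median coding transcript length alike. The highest gene changed with the length used.

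Removing the 2 animals that stood apart moved the counts of channel genes and of all genes the same way. In ret/wt 9 channel genes passed (3 higher, 6 lower) where 12 had, and over all genes 9.88% passed where 12.6% had. In ret/ret 16 passed (3 higher, 13 lower) where 8 had, and over all genes 17.4% passed where 9.5% had. Single libraries mattered as well. The ret/wt count was 7 without cortex replicate 4 (10.2% of all genes). The ret/ret count was 4 without thalamus replicate 1 (4.8% of all genes) and 13 without cortex replicate 2 (13.4% of all genes). It was 5 without cortex replicate 3 (4.19% of all genes), cortex replicate 4 (5.06%) or thalamus replicate 4 (4.6%).

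With DESeq2 more genes passed, channel genes and others alike. In ret/wt it called 16 of 34 (7 higher, 9 lower; 17.9% of all genes), the added genes being Cacna2d2, Cacna2d4, Cacng5 and Scn3b. In ret/ret it called 13 of 34 (5 higher, 8 lower; 17.6% of all genes), the added genes being Cacna2d1, Cacng8, Hcn3, Hcn4 and Scn9a. Some genes passed by edgeR with 1 library left out. In ret/wt these were Scn4b (without cortex replicate 1), Cacna2d2 and Scn3b (cortex replicate 3), Cacna1b (thalamus replicate 1), Cacna2d4 (thalamus replicate 2), Cacna2d3 (thalamus replicate 3) and Cacna2d2 (thalamus replicate 4). In ret/ret they were Hcn4 (without cortex replicate 1), Cacna1b, Cacna2d1, Cacna2d2, Cacng8 and Scn3b (cortex replicate 2), and Cacna2d3 and Cacnb4 (thalamus replicate 2).

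Genes linked to calcium, sodium and HCN channels were followed in a list of 36 partner genes. The list included scaffolds, a ubiquitin ligase, presynaptic binding proteins and the leak channel gene Nalcn. Of the 36, 31 had a row and 29 were tested in each region comparison. In ret/wt 2 were higher (5.44% of all genes) and 4 lower (7.12%) in thalamus, and in ret/ret 1 was higher (4.1%) and 4 lower (5.4%). The genes that passed in both with a log2 fold change of at least 1 in size were Cachd1, Nedd4l and Rims1. Cachd1, an alpha2delta-like protein, stood at 8.08, 14.6, 9.89 and 38.9 CPM in ret/wt cortex and at 96.5, 78.2, 41.6 and 54 CPM in ret/wt thalamus. Cachd1 in ret/ret animals stood at 13.2, 14.3, 13.3 and 15.3 CPM in cortex and 135, 41, 80.4 and 30.9 CPM in thalamus. The thalamus libraries lay above the cortex libraries in both genotypes, at 1.92 ± 0.48 (SE) and 2.36 ± 0.42 (SE) on the log2 scale (adjusted p = 0.0259 and 0.0109 by edgeR). The ret/ret call of Cachd1 held under all 17 alternatives, while the ret/wt call was lost without any 1 of cortex replicates 1, 2 and 3 and thalamus replicates 1 and 2, and without the 2 animals that stood apart (adjusted p = 0.0622 to 0.0816).

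Rims1, a scaffold that tethers calcium channels at the active zone, was at -1.87 ± 0.30 (SE) in ret/wt and -1.86 ± 0.27 (SE) in ret/ret on the log2 scale, thalamus over cortex, with adjusted p-values of 0.00290 and 0.00534 by edgeR. Its regions did not overlap, and both calls held under all 17 alternatives. Nedd4l, a ubiquitin ligase that removes sodium channels from the membrane, was at -1.62 ± 0.42 (SE) and -1.30 ± 0.33 (SE), with adjusted p-values of 0.0288 and 0.0380 by edgeR. Its regions did not overlap in ret/wt and overlapped in ret/ret. The Nedd4l call was lost under 6 of 17 alternatives in ret/wt (without cortex replicate 1 or 4, thalamus replicate 1 or 3 or the 2 animals, and with the animal as a block) and 7 of 17 in ret/ret (without cortex replicate 1, 3 or 4 or thalamus replicate 1, 3 or 4, and with the block), with adjusted p-values up to 0.0992 and 0.109.

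The genotypes were then compared within each region. No channel gene passed the test between ret/ret and ret/wt. In thalamus 0 of 34 genes passed at 0.05 by edgeR, as did 0% of all 14767 genes, and 0 of 34 were without overlap between the genotypes (2.74% of all genes). At an unadjusted p under 0.05 there was 1 of 34 (3.93% of all genes), and DESeq2 and limma-voom each also called 0 of 34 (38 and 0 of all genes). In cortex 0 of 33 genes tested passed (0.021% of all 14288 genes), 0 were without overlap (2.35% of all genes) and 0 had an unadjusted p under 0.05 (3.77% of all genes). DESeq2 and limma-voom called 0 channel genes there too (39 and 2 of all genes), and Scn9a was too low to be tested in cortex.

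**Figure D5:**
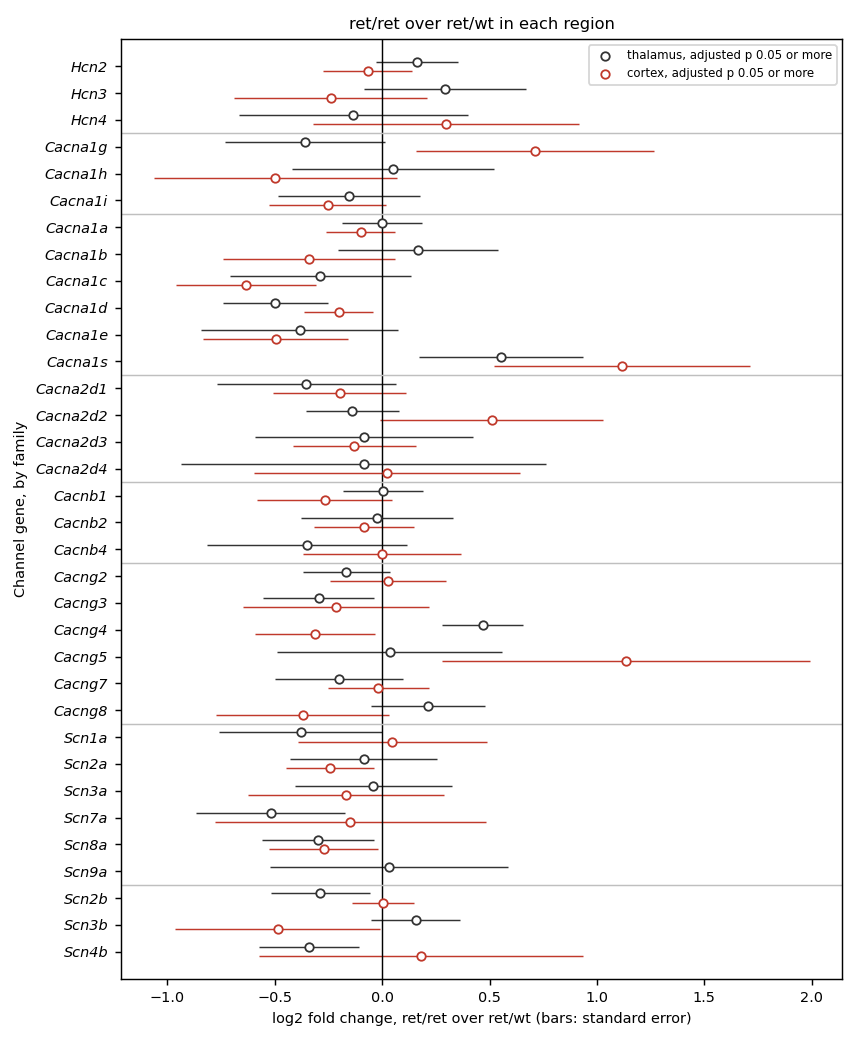
Log2 fold change of each channel gene, ret/ret over ret/wt, in thalamus (dark) and cortex (red), with its standard error as a bar; every point is open because 0 genes had an adjusted p under 0.05, and Scn9a has no cortex point. The values run from -0.52 (Scn7a) to 0.55 (Cacna1s) in thalamus and from -0.63 (Cacna1c) to 1.13 (Cacng5) in cortex.

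The 3 smallest unadjusted p-values in thalamus belonged to Cacng4, Cacna1d and Scn7a. Cacng4 was at 77.4 ± 17.6 CPM in ret/ret against 57.2 ± 7.57 CPM in ret/wt thalamus (SD, n = 4), and its values overlapped. For Cacng4 the log2 fold change, ret/ret over ret/wt, was 0.47 ± 0.19 (SE), with an unadjusted p of 0.0328 and an adjusted p of 0.9998 by edgeR. Cacna1d was at 21.4 ± 6.00 CPM in ret/ret against 30.9 ± 7.08 CPM in ret/wt thalamus (SD, n = 4), a difference of -0.50 ± 0.25 (SE) with an unadjusted p of 0.0707 by edgeR. Scn7a, a sodium-sensing channel of glia, was at -0.52 ± 0.34 (SE), with an unadjusted p of 0.163 by edgeR.

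In cortex the 3 smallest unadjusted p-values were those of Cacna1c (-0.63 ± 0.33, SE; 0.0802), Cacna1s (1.12 ± 0.60, SE; 0.0916) and Cacna1e (-0.50 ± 0.34, SE; 0.171) by edgeR. Cacna1c was highest in ret/wt cortex replicate 4, the library with choroid plexus genes, at 198.5 CPM against 84.5 to 98.7 CPM in the others of its group. The median log2 fold change, ret/ret over ret/wt, was -0.11 for the channel genes and -0.02 for all genes in thalamus, and -0.15 and 0.01 in cortex. For the 3 HCN genes it ran from -0.13 (Hcn4) to 0.29 (Hcn3) in thalamus, and for the T-type genes from -0.36 (Cacna1g) to 0.05 (Cacna1h).

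Pericytes were followed with 6 marker genes, whose summed level overlapped between the genotypes in both regions. It was 42.3 to 101 CPM in ret/ret cortex and 93.4 to 136 CPM in ret/wt cortex, and 44.1 to 189 CPM in ret/ret thalamus and 87.8 to 291 CPM in ret/wt thalamus. The median log2 fold change of the markers tested, ret/ret over ret/wt, was -1.70 in cortex and -1.21 in thalamus. In cortex Rgs5, Abcc9, Kcnj8 and Higd1b were lower without overlap (2.35% of all genes did not overlap), while Pdgfrb and Vtn overlapped. In thalamus Rgs5 and Kcnj8 were lower without overlap (2.74% of all genes), and the other markers overlapped. Kcnj8 and Higd1b were near the floor in ret/ret cortex. By edgeR 1 of the 5 tested in cortex was lower in ret/ret and 0 of 6 in thalamus passed. That gene was Rgs5, at a log2 fold change of -1.70 (adjusted p = 0.041). Its call was lost under 11 of 17 alternatives, among them every single library left out (adjusted p = 8.9e-11 to 0.291 over the 17). The highest value came with the replicate number as a block, which pairs different animals here. Vtn, also in the list, had a mean of 36.3 CPM in ret/ret cortex and 32.1 CPM in ret/wt cortex. Mitochondrial genes took 5.87% to 12.1% of the counts in ret/ret thalamus and 4.24% to 8.80% in ret/wt thalamus. Their part in the channel gene values was not tested.

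The interaction asked whether the regional difference of a channel gene depended on the genotype. In this test 0 of 34 genes passed, as did 0% of all 15286 genes, and 1 had an unadjusted p under 0.05 (1.6% of all genes); DESeq2 and limma-voom called 0 of the channel genes (4 and 0 of all genes). That gene was Cacng4, whose regional difference on the log2 scale was larger in ret/ret by 0.77 ± 0.35 (SE), with an unadjusted p of 0.0432 and an adjusted p of 1.0 by edgeR. Cacna1g (-1.07 ± 0.72, SE; unadjusted p = 0.158) and Cacng8 (0.56 ± 0.48, SE; unadjusted p = 0.261) followed by edgeR. The 4 genes that passed in ret/wt alone were therefore not shown to differ in their regional pattern between the genotypes.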

How the data were processed

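The deposited values were each an estimated count per Ensembl gene in 16 columns, made by the authors with kallisto 0.44.0 on GRCm38.p6 per the submitters' processing notes. Of the nonzero values 0.0372% were within 1e-06 of a whole number; how transcripts were summed to genes and whether strand was used are not given in the sources used here, so reads of genes overlapping on opposite strands may not be separable. Libraries were polyA-selected and stranded, per the labels' protocols. Of 21804 genes 99.0% matched GENCODE M21 (GRCm38), which gave symbols, gene types, lengths and overlaps; 1 of 44 annotated genes of the prefixes is not analysed here, and 3 genes that met the rule are not reported here.

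Counts were rounded and fitted in R 4.3.3 with edgeR 4.0.16: filterByExpr at its defaults (count 10, total 15), TMM factors and the quasi-likelihood test with Benjamini-Hochberg adjustment at 0.05 over all genes tested. Each comparison used its own 8 libraries and the interaction all 16. CPM of single libraries were scaled by TMM over all 16; differences within animals used log2(CPM + 1). DESeq2 1.42.0 and limma 3.58.1 were alternatives, with other scalings and filters, a fit of all 16 libraries, a block, 2 animals left out and each library left out. The block was the animal in the region comparisons and the interaction. In the genotype comparisons it was the replicate number, which pairs different animals. Python 3.11.15 (numpy 2.4.6, pandas 2.3.3) computed the tables and matplotlib 3.10.9 drew the plots. The region and genotype fits, and not the interaction, were also run on simulated counts with planted changes. Those libraries were drawn independently, without pairing by animal. The outcome is not given here, so the run does not show what the fits could detect in these data.

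Libraries with the same number within a genotype came from 1 animal, per the animal labels, so the numbers pair the regions. Across genotypes they mark different animals. The mean correlation of residuals of same-numbered libraries was 0.06 in ret/wt and 0.11 in ret/ret across regions, and -0.04 in thalamus and 0.01 in cortex across genotypes.

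Values in every library are given for all HCN, T-type and sodium channel beta genes described, and for any other channel gene with an adjusted p under 0.05, no overlap and a log2 fold change of at least 1 in size in either region comparison. Other genes are named by family. The genotype comparisons and the interaction name the 3 genes with the smallest unadjusted p, and partner genes are named where they passed with that size in both region comparisons. The genes and lists were chosen with earlier results of these data known.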

Additional observations from a re-analysis of the deposited data

Results flagged for a closer look

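In 12 of 136 group-and-gene sets of 4 libraries, 1 library lay so far from the others that its gap to the nearest, over the whole range, exceeded Dixon's critical value. Chance alone gives this in about 1 in 20 sets if values are independent and normally distributed. CPM need not be normal and the sets share the same libraries, so the chance rate here is not known. Of the 12, 8 fell on the thalamus libraries of the 2 animals that stood apart. In ret/wt thalamus replicate 3, Hcn4 was at 52.8 CPM (others 20.1 to 24.3), Cacng5 at 67.3 CPM (others 21.0 to 28.7), Cacna2d4 at 24.4 CPM (others 3.21 to 6.77) and Cacng8, the lowest, at 4.39 CPM (others 5.41 to 5.55). In ret/ret thalamus replicate 2, Hcn4 was at 63.5 CPM (others 13.3 to 17.4), Cacna2d3 at 151.7 CPM (others 33.5 to 49.0), Cacna2d4 at 27.6 CPM (others 1.68 to 4.73) and Cacna1c at 117 CPM (others 39.6 to 47.6).

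In ret/wt cortex replicate 4, the library with choroid plexus genes, Cacna1c was at 198.5 CPM (others 84.5 to 98.7) and Scn3a at 61.8 CPM (others 30.3 to 34.8). Hcn3 was at 29.1 CPM in ret/wt thalamus replicate 1 (others 8.27 to 11.1). Scn2a was the lowest of its group in ret/wt cortex replicate 2, at 390.7 CPM (others 506 to 528).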

How the results depend on the processing

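The number of channel genes that passed the region comparison was 12 in ret/wt and 8 in ret/ret. With DESeq2 it was 16 and 13 (17.9% and 17.6% of all genes, 2587 and 2591 where 1813 and 1398 passed by edgeR). In ret/ret it was 16 without the 2 animals that stood apart, where all calls rose to 2564, and it ran from 4 to 13 with 1 library left out (4.19% to 13.4% of all genes); in ret/wt it ran from 7 to 13 (8.01% to 12.2%). With the animal as a block the numbers were 10 and 7, and apart from the changes named beside the genes the block changed no other call of a channel gene. The genotype comparisons and the interaction gave 0 under every alternative run, left-out libraries included. Upper-quartile scaling shifted the median of all genes to 0.13 in ret/wt and 0.10 in ret/ret (log2) and turned the split of all calls to 988 higher and 877 lower in ret/wt and 819 and 662 in ret/ret. Under it Cacng7 in ret/wt became 0.0401 and Cacng2 in ret/ret 0.0729, turning sign. Without the 2 animals Cacnb2 in ret/wt became -0.14 and Cacna1g in ret/ret 0.24. Scn3a in ret/ret became 0.13 with limma-voom and 0.0751 with the replicate block. With 1 library left out, values turned sign for Cacng7 (-0.38 to 0.12), Cacnb2 (-0.0404 to 0.40), Hcn3 (-0.11 to 0.72), Scn2b (-0.0005 to 0.13) and Scn3a (-0.38 to 0.0729) in ret/wt, and for Cacna1g (-0.57 to 0.58), Cacnb2 (-0.10 to 0.41), Cacng2 (-0.19 to 0.11), Cacng5 (-0.49 to 1.67), Scn3a (-0.42 to 0.24) and Scn7a (-0.94 to 0.19) in ret/ret. None of these had passed the test. Alternatives with fewer libraries have fewer samples by construction; otherwise the cause was not tested. Genes near the floor, such as Scn9a, are limited by depth.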

Other observations

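Some channel genes were high in the cortex library with the most cerebellum gene reads, ret/ret replicate 2. Cacna1g was at 309 CPM there (51.0 to 102 CPM in the other 3 of its group), Cacna2d2 at 151.6 CPM (27.6 to 53.0 CPM) and Cacng5 at 93.6 CPM (5.65 to 22.9 CPM). In ret/wt cortex replicate 3, the other such library, Cacna2d2 was at 84.6 CPM (30.7 to 43.6 CPM in the others), Cacng5 at 25.8 CPM (4.80 to 15.9 CPM) and Cacnb4 at 405 CPM (149.7 to 328 CPM), while Cacna1g, at 100.5 CPM, lay within its group (39.8 to 120.0 CPM). These genes were picked after their values were seen, and the part of the other tissue in them was not tested.

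Further partner genes, named after their values were seen, passed by edgeR in 1 region comparison. In ret/wt these were Mrvi1, at a log2 fold change of 2.35 for thalamus over cortex, Nrcam at -0.78 and Rimbp2 at -1.53. Mrvi1 stood at 4.66, 5.63, 26.9 and 8.06 CPM in ret/wt thalamus, the third library being that of the animal that stood apart; without this library it was at 1.46 and did not pass (adjusted p = 0.0631), and its call was lost under 8 of 17 alternatives in all (range 0.000699 to 0.118). The Nrcam call was lost without thalamus replicate 1 (adjusted p = 0.0523), and Rimbp2 passed under all 17. In ret/ret they were Ank2, the ankyrin that links membrane proteins to the cytoskeleton, at -0.77, and Fgf14, a modulator of sodium channels, at 2.0-fold lower. The Ank2 call was lost without cortex or thalamus replicate 3 (adjusted p = 0.0511 and 0.0626), and the Fgf14 call without cortex replicate 2 or 3 or thalamus replicate 1, 3 or 4 (0.0589 to 0.112). The lowest adjusted p of any partner gene in the interaction was 1.0 by edgeR, so a difference between the genotypes was not shown.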
